A study of Mus musculus with 2 samples.

Results

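Olfm4-high crypt base stem-like cells were examined in single-cell RNA-Seq data of epithelial cells from mouse small intestine, sorted by red Tomato fluorescence. A barcode, which stands for 1 captured cell, was counted as Olfm4-high when it held at least 500 genes, at least 1000 unique molecular identifiers (UMIs, each marking 1 captured transcript), at most 25% mitochondrial UMIs, at least 5 UMIs of Olfm4 at a level of at least 300 CPM (counted per 1000000 UMIs of that barcode), and under 10% of UMIs from Lyz1 and the defensin genes whose symbols begin with Defa. The rule found 414 cells among 8761 barcodes that passed the limits on genes, UMIs and mitochondrial share (kept barcodes below) and 12591 barcodes in the files. Of these, 265 lay among the 3129 kept barcodes of the WT library and 149 among the 5632 kept barcodes of the library labelled NFKO. WT mice were Neurog3Cre; Rosa26tdtomato, and the other mice were Neurog3Cre-FoxO1 f/f; Rosa26tdtomato, so the control animals carry the Cre and the red reporter too. Neurog3, which endocrine progenitors express, drives the Cre, and the reporter marks cells whose ancestors expressed it. The study's methods describe a sort of Tomato-positive cells for the NFKO mice, whereas the series' design text names a sort by Tomato signal present or absent. Each library is a pool of small intestines from 4 to 5 mice, 4 to 6 weeks of age, with adhering pancreas dissected away before the sort. Each group was thus 1 library, without replicates and without a test, and intervals given below are 95% intervals for counting error only and do not hold the differences between mice, sorts or libraries.

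The epithelium of the small intestine is renewed from the base of its crypts, where slender stem cells sit between Paneth cells. Wnt signals and Notch contact with Paneth cells keep these stem cells undifferentiated. Their daughters either stay Notch-active and become absorptive, or express the Notch ligand Dll1 and the transcription factor Atoh1 and become goblet, Paneth, tuft or endocrine cells. Lgr5, a receptor for R-spondins that strengthens Wnt signalling, is the classical marker of the stem cell. Olfm4 encodes a secreted glycoprotein of the same cells that depends on Notch in the mouse intestine. Cps1 encodes the mitochondrial carbamoyl phosphate synthetase, Dmbt1 a secreted scavenger receptor that binds bacteria, and Clca3b a member of the calcium-activated chloride channel regulator family.

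Promoter stretches of 2 genes are shown because Olfm4 counts chose the cells and Jaml, a junctional adhesion molecule, was, among the genes compared, the one furthest above the remaining barcodes that the rule had not used. Capitals mark TGGGAA, the core letters bound by RBPJ, the DNA-binding partner of Notch. The sequences are from RefSeq on GRCm38.p6, 5′ to 3′ on the plus strand, for Olfm4 the 30 bases before the start (chr14:80000272-80000301) and for Jaml the bases 235 to 190 before it (chr9:45078948-45078993).
Olfm4: taagaagccctgagactcTGGGAAgaagcc
Jaml: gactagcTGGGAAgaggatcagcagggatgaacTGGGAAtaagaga
The Olfm4 match lay 7 to 12 bases before the start, and the Jaml matches 223 to 228 and 197 to 202 bases before it. Over the 250 bases before the start, on both strands, TGGGAA was found in 7094 of 32851 mouse promoters (21.6%) and CTTTGA, the core of the TCF/LEF motif of Wnt signalling, in 4544 (13.8%). Neither motif was found in these windows of Clca3b, Ascl2, Axin2, Notch1 or Myb, and Cdca7 held 1 TGGGAA on the minus strand. Olfm4 lies on chromosome 14 (79984081 to 80023139), Lgr5 on 10 (115450311 to 115587780), Dmbt1 on 7 (131032053 to 131121630), Cps1 on 1 (67123026 to 67231259), Clca3b on 3 (144822623 to 144849357) and Jaml on 9 (45079183 to 45108534), all protein-coding genes on GRCm38. The RefSeq start of Olfm4 used above lies inside its GENCODE span.

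Foxo1, the gene that the floxed alleles should delete, was read first as a check of the label. Foxo1 (chromosome 3, 52268336 to 52353221) had 166 UMIs in the Olfm4-high cells of WT and 113 in those of the library labelled NFKO. Summed over the cells, these are 13.5 and 16.8 CPM. The ratio, here and below that of the library labelled NFKO over WT, was 1.25 (0.972 to 1.59), and in the low secretory range described below it was 1.92 (1.18 to 3.12). The undeleted Foxo3 had 12.6 and 9.69 CPM, and Foxo4 12.1 and 5.67 CPM. No loss of Foxo1 transcripts was thus seen in these cells. The study itself reports a significant reduction of Foxo1 expression in Tomato-positive cells sorted from NFKO mice, without a change of Foxo3 or Foxo4. That report covers sorted Neurog3-derived cells and not Olfm4-high cells alone. Unlike in that report, Foxo4 was lower here in the library labelled NFKO. The 3′ kit can count a transcript with an internal deletion, and whether its tags lie outside the deleted part is not given in the sources used here.

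The Olfm4-high cells held many UMIs and differed in sex composition between libraries. Their median cell held 41972 UMIs (WT) or 38660 UMIs (the library labelled NFKO), against 16064 and 16949 in the remaining kept barcodes. The minimum of 5 Olfm4 UMIs itself favours deep barcodes, and 14 and 35 barcodes failed only that minimum. Depth was not particular to these cells. Barcodes with at least 10% of Defa and Lyz1 UMIs had medians of 62173 and 41661 UMIs. The dividing Olfm4-low barcodes described below had medians of 30972 and 29815. A higher share of cells with a transcript thus partly follows depth. Shares were therefore also read at an even depth of 5000 UMIs per cell, drawn at random, without the 3 WT and 5 other cells that were shallower. By Y-linked genes and Xist, 247 WT members were typed male and 0 female, whereas 19 members of the library labelled NFKO were male and 114 female, so sex and label cannot be told apart over all cells. Doublet scores in the upper 4.03% and 6.04% of the kept barcodes were held by 12.1% and 12.8% of the Olfm4-high cells. The libraries shared 6 barcodes, of which 2 were among the Olfm4-high cells. The summed list of 12 immune genes had 1.39 and 0.596 CPM with 8 and 9 of its genes at 0, and 9 stromal and vessel genes had 2.28 and 1.19 CPM, while none of 8 epithelial genes differed 2-fold from the remaining barcodes.

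Olfm4 itself ranged in single cells from 307 over a median of 2016 to 9154 CPM in WT, and from 307 over 1653 to 12326 CPM in the library labelled NFKO. Because Olfm4 chose the cells, these values are a description. Just inside the limit, at 300 to 400 CPM, lay 13 and 10 cells, and just outside it, at 200 to 300 CPM with every other condition met, 16 and 11 barcodes, the nearest at 291 and 299.6 CPM. Lgr5 was found in 142 of 265 WT cells (53.6%) and 74 of 149 others (49.7%), and its highest cells held 452 and 601 CPM. After thinning, 21.0% and 19.4% of the cells still held an Lgr5 UMI, compared with 0.847% and 0.660% of endocrine-rich barcodes, a class that should lack it. At that depth 98.9% and 97.9% of the cells showed Olfm4, which the rule itself requires, so that share is no yardstick for Lgr5. Summed over the cells, Lgr5 was at 43.0 (WT) and 46.5 CPM (the library labelled NFKO). At such a level a thinned cell can lack a UMI although it expresses Lgr5. The thinned shares thus do not tell how many of the cells express it.

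The other 3 markers were found in most of the thinned cells, with shares from 79.2% to 93.1%. Cps1 was held by 93.1% and 82.6%, against 22.5% and 14.4% of the remaining barcodes. Clca3b was likewise held by 93.1% and 82.6%, against 23.5% and 14.0%. Dmbt1 was held by 86.6% and 79.2%, against 19.7% and 14.0%. Their levels varied widely between cells. Cps1 ranged from 0 over a median of 590 to 2039 CPM in WT and from 0 over 525 to 1842 CPM in the library labelled NFKO, and Clca3b from 0 over 622 to 2347 CPM and from 0 over 434 to 2718 CPM. The 2 libraries overlapped over nearly all of these ranges. Relative to the remaining barcodes of the same library, Lgr5 was 5.44-fold (WT) and 10.7-fold higher, Cps1 6.45-fold and 9.21-fold, Clca3b 7.98-fold and 8.91-fold, and Dmbt1 2.95-fold and 4.46-fold.

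**Figure D1:**
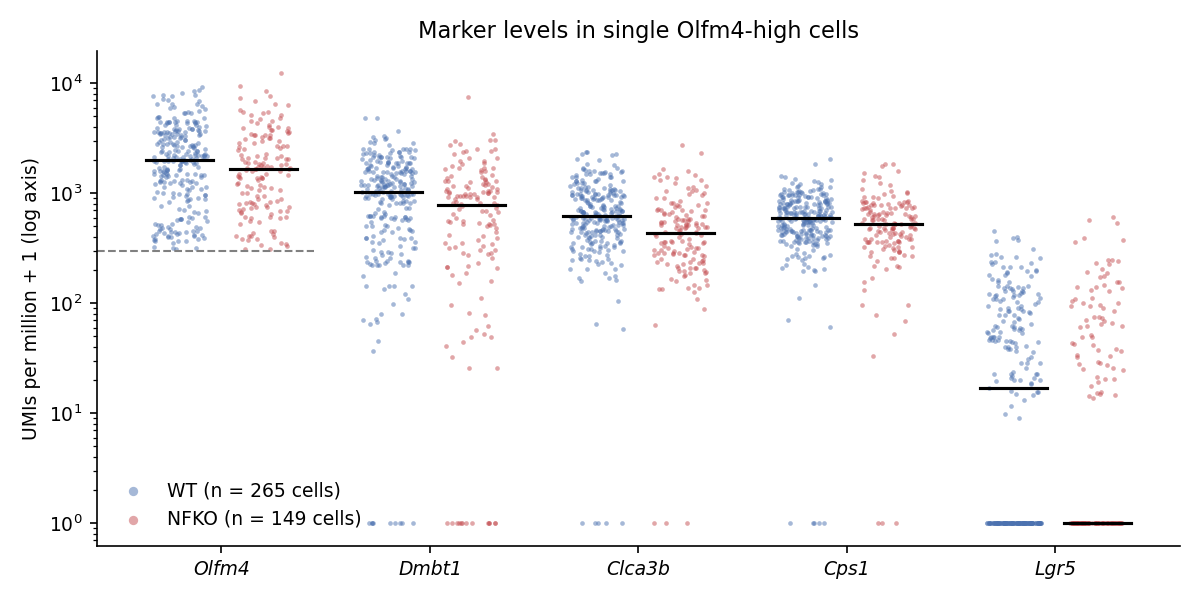
CPM, plus 1, of the 5 markers in each Olfm4-high cell of WT (265 cells) and the library labelled NFKO (149 cells) on a log axis; black bars are medians, points at the bottom are cells with no UMI, and the dashed line is the Olfm4 limit of 300. Cps1, Clca3b and Dmbt1 each had a UMI in at least 91.3% of the cells of either library, whereas the Lgr5 median was 15.9 (WT) or 0 (the library labelled NFKO).

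Transcripts of Wnt-dependent stem cells marked the Olfm4-high cells. Of 31 stem genes fixed as a list, 13 were abundant enough to be compared (at least 50 CPM in the cells of each library), and 8 of these exceeded the remaining barcodes at least 2-fold in both libraries. Over all genes compared, 393 of 2538 (15.5%) were that much higher and 138 of 2107 (6.55%) that much lower. For the higher counts the level was asked of the Olfm4-high cells only, so genes that are high there enter more easily. By their level in the remaining barcodes, 5 stem genes reached it. The stem list's median log2 difference was 1.83 (WT) and 1.98 (library labelled NFKO), against 0.57 and 0.37 over all genes. Ascl2, a Wnt-driven regulator of stem cell fate, was at 26.1 and 35.8 CPM in the cells and at 1.72 and 2.39 CPM outside them. Axin2, a direct Wnt target, was 5.04-fold and 4.43-fold higher, Smoc2, a matricellular protein of the crypt base, 3.56-fold and 4.04-fold, and the ion cotransporter Slc12a2 3.93-fold and 3.95-fold. Lgr5 and Ascl2 were not limited to these cells. Tuft-rich barcodes held Lgr5 at 45.6 and 36.0 CPM and Ascl2 at 31.9 and 48.9 CPM, and Paneth-rich barcodes held Lgr5 at 20.3 and 17.9 CPM. The same tuft-rich barcodes held Olfm4 at 25.9 and 4.15 CPM, and Cps1, Clca3b and Dmbt1 in at most 8.33% of thinned barcodes.

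The 20 genes furthest above the remaining barcodes in both libraries were named by size alone, and their roles are given as background. Beside Olfm4, Clca3b and Cps1 they held the adhesion molecule Jaml (14.6-fold and 34.1-fold), the Myc-responsive Cdca7 (10.5-fold and 13.2-fold), the transcription factor Myb (7.12-fold and 7.52-fold), the potassium channel Kcnq1 (6.81-fold and 6.61-fold) and the interferon-induced membrane protein Ifitm3 (8.47-fold and 7.60-fold). Among them were also the helicase subunits Mcm3, Mcm5, Mcm6 and Mcm7, the DNA ligase Lig1, the chromatin factors Hells and Uhrf1, and the enzymes of nucleotide supply Shmt1 and Tk1. The remaining names were the G1 kinase Cdk6, Stmn1, which binds tubulin, and Slfn9, a Schlafen gene. Mcm3 was at 69.0 CPM in WT and 59.0 CPM in the library labelled NFKO, against 6.07 and 5.66 CPM outside the cells.

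Genes of ribosome making and of the citrulline pathway were high as well. All 10 nucleolar and Myc genes abundant enough in the Olfm4-high cells were at least 2-fold higher, against 15.5% of all genes compared. Their median log2 differences were 1.90 and 1.82, beside 0.57 and 0.37 over all genes. As for all genes, the level was asked of the Olfm4-high cells only, which favours genes that are high there. In the remaining barcodes 6 genes of the list reached it. Myc, which drives ribosome production, was at 64.9 and 39.5 CPM, and nucleolin (Ncl) at 1279 and 987 CPM. Of the citrulline and urea cycle list, 3 of 5 genes compared were at least 2-fold higher. These were Cps1, Otc, which joins carbamoyl phosphate to ornithine (3.42-fold and 3.69-fold), and Oat, which links ornithine to proline and glutamate (2.56-fold and 2.85-fold). Nags, whose product activates Cps1, was too scarce for the comparison, at 17.3 and 17.6 CPM, 1.97-fold and 1.98-fold above the level outside. Ass1 and Asl, which turn citrulline into arginine, were near the level outside, at 1.06-fold and 0.911-fold and at 1.03-fold and 0.995-fold.

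The Olfm4-high cells were also set beside dividing Olfm4-low barcodes. These were 210 WT barcodes and 525 of the other library in which S phase and G2/M genes made up at least 0.3% of UMIs. Low Olfm4 was part of their choice, and Olfm4 moved with the stem list, with Spearman's rho of 0.773 and 0.716 across Olfm4-high cells. This choice favours higher stem genes in the Olfm4-high cells, so the contrast cannot separate stem genes from genes of division. The Olfm4-high cells were not chosen for division, and 67.9% and 67.8% passed the same 0.3% limit. They also held more Chga, at 5.50-fold and 3.30-fold, and less Agr2, as given below. In both libraries, Olfm4-high cells exceeded the dividing barcodes at least 2-fold in 36 of 2538 genes (1.42%) and fell short of them at least 2-fold in 34 of 2561 (1.33%). The stem list kept 7 of 13 genes at least 2-fold higher, with medians of 1.42 and 1.07 on the log2 scale. Lgr5 was 13.5-fold (9.10 to 20.8) and 20.7-fold (14.7 to 29.9) higher, Jaml 6.75-fold and 14.2-fold, Cdk6 4.58-fold and 5.00-fold and Axin2 4.15-fold and 4.02-fold. Ascl2 had 4 and 23 UMIs in the dividing barcodes, and its ratios of 53.2 (20.6 to 196) and 25.6 (16.7 to 41.2) are correspondingly loose. Dmbt1 did not separate the groups, with 0.888-fold and 1.42-fold. The nucleolar list had 0 of 10 genes 2-fold higher here, with medians of 0.72 and 0.66.

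Among the genes lower than in the dividing Olfm4-low barcodes were those of goblet cells, of which 4 of 15 were at least 2-fold lower. Agr2, a disulfide isomerase needed for mucin folding, was at 0.371-fold and 0.315-fold and the trefoil peptide Tff3 at 0.313-fold and 0.406-fold. Atoh1 was at 0.496-fold and 0.355-fold, the ligand Dll1 at 0.473-fold and 0.530-fold and Spdef, a goblet regulator, at 0.506-fold and 0.461-fold. Some other secretory transcription factors were higher, with Sox4 at 3.825-fold and 2.66-fold, Neurog3 at 2.28-fold and 3.61-fold and Neurod1 at 3.23-fold and 1.80-fold. Neurog3, at 17.0 and 34.9 CPM, was under the level of the comparison, and Neurod1 is also on the endocrine list used below. Of a list of 16 such factors, 1 of 6 compared was at least 2-fold higher and 1 of 6 at least 2-fold lower. The list's median log2 differences were −0.653 and −0.888. Fabp6, the ileal bile acid binding protein, was at 7.25 and 5.81 CPM against 180 and 51.3 CPM in the dividing barcodes. Cdkn2b, an inhibitor of the G1 kinases, was at 0.157-fold and 0.289-fold.

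Within the Olfm4-high cells, the levels of Lgr5 and Ascl2 and those of goblet-side genes moved with Olfm4 in opposite directions. The cells of each library were divided into tertiles by Olfm4. From the lowest through the middle to the highest tertile of WT cells, Lgr5 was at 12.6, 34.1 and 97.3 CPM and Ascl2 at 7.46, 25.9 and 52.7 CPM. In the library labelled NFKO the same tertiles held Lgr5 at 11.01, 39.1 and 119 CPM and Ascl2 at 16.7, 33.9 and 71.8 CPM. Both stem genes were thus higher in each higher tertile of both libraries. In the 43 and 39 barcodes that failed only the Olfm4 level limit, Lgr5 was at 2.55 and 0.949 CPM, while Mki67 was at 307 and 199.7 CPM. Hes1, the main effector of Notch in the crypt, was at 105, 132 and 213 CPM in WT and at 80.2, 108 and 178 CPM in the other library. Clca3b followed, at 447, 663 and 1113 CPM and at 290, 464 and 814 CPM.

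Genes of the goblet side ran the other way, and the endocrine granins did not. Atoh1 was at 63.3, 39.7 and 10.2 CPM in WT and at 82.0, 61.6 and 13.6 CPM in the library labelled NFKO, and Agr2 at 5760, 2902 and 515 CPM and at 6852, 4276 and 1034 CPM. The granin gene Chga was at 129, 159 and 906 CPM in WT and at 204, 135 and 261 CPM in the library labelled NFKO, and Chgb at 975, 914 and 4717 CPM and at 704, 451 and 937 CPM. As sums, both granins were thus highest in the top tertile of each library, but few cells weigh on these sums. Single-cell medians of Chgb were 21.9 and 48.8 CPM, and 3 cells of the library labelled NFKO held 32.4% of its UMIs. Over the same tertiles, the endocrine range described below held 11, 17 and 31 cells in WT. In the library labelled NFKO it held 12, 7 and 7. Dmbt1, although a marker of the cells, was lower in each higher tertile, from 1661 through 1154 to 943 CPM and from 1143 through 851 to 818 CPM. Mcm3 was flat in WT, at 71.8, 67.5 and 66.9 CPM, and Mki67 was at 207, 208 and 207 CPM in the library labelled NFKO but at 342, 291 and 248 CPM in WT. Across cells, Spearman's rho of Olfm4 with the summed stem list was 0.773 (265 WT cells) and 0.716 (149 cells), with the goblet list −0.430 and −0.484, and with the endocrine list 0.0632 and −0.183. Its rho with total UMIs was −0.295 and −0.391, so depth is shared by these points, as is the library.

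**Figure D2:**
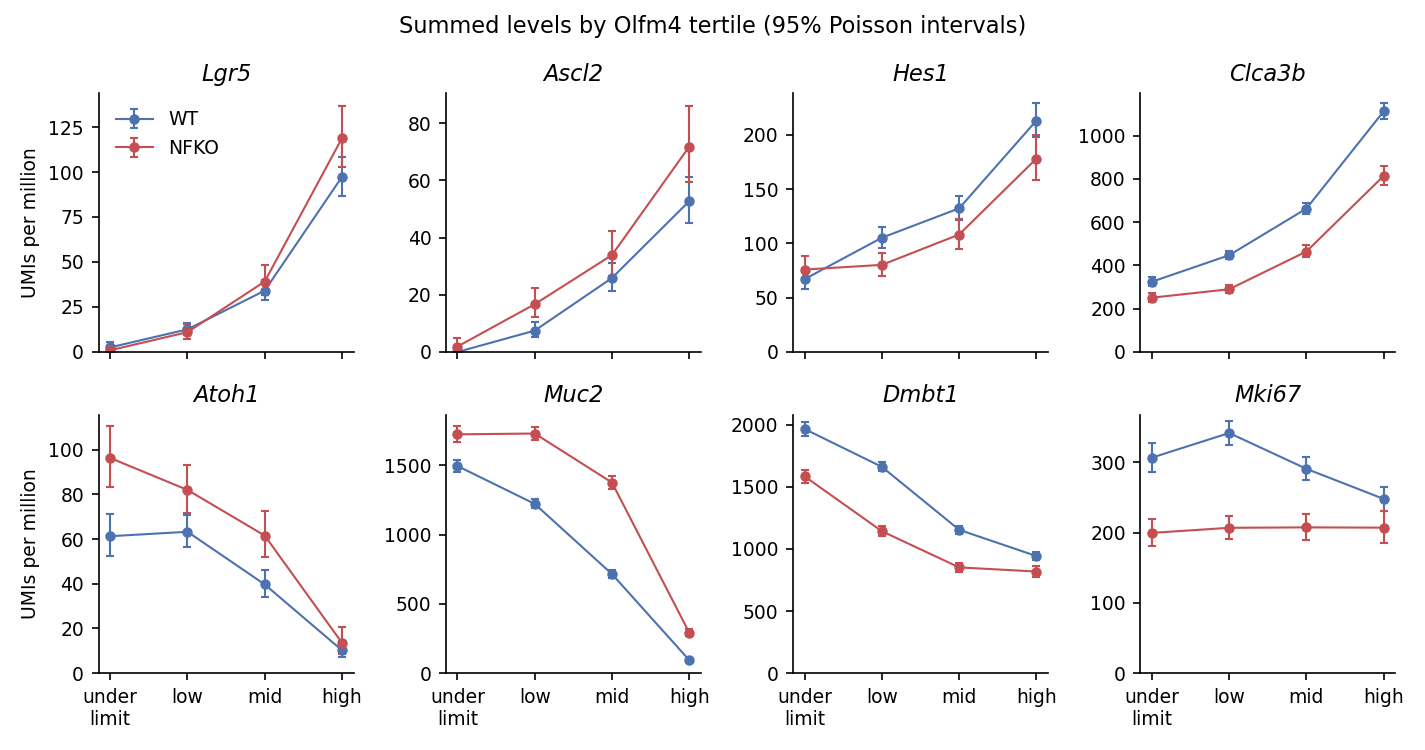
Summed CPM of 8 genes in the lowest, middle and highest tertile of Olfm4-high cells by Olfm4 level, beside the barcodes that failed only the Olfm4 level limit (43 in WT, 39 in the library labelled NFKO); bars are 95% Poisson intervals. Lgr5, Ascl2, Hes1 and Clca3b were highest in the top tertile of both libraries, and Atoh1 and Muc2 lowest there.

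Transcripts of differentiated secretory cells divided the Olfm4-high cells further. The cells were cut into 3 ranges at 0.5% of UMIs. Cells with at least that share of 20 endocrine genes form the endocrine range, cells below it with at least that share of 15 goblet genes the goblet range, and the remainder the low secretory range. In WT 103 cells (38.9%) lay in the low secretory, 103 (38.9%) in the goblet and 59 (22.3%) in the endocrine range. In the library labelled NFKO these were 53 (35.6%), 70 (47.0%) and 26 (17.4%). These are ranges and not types, with 21 and 20 cells between 0.25% and 1% on the goblet list and 21 and 10 on the endocrine list. More cells lay in the goblet and endocrine ranges together than in the low secretory range, so most carried transcripts of a secretory lineage together with Olfm4. The cells of the low secretory range held the highest Lgr5 in the library labelled NFKO, at 71.1 CPM against 35.6 in the goblet and 43.8 in the endocrine range. In WT, Lgr5 was at 58.1, 26.4 and 62.6 CPM in the same order.

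The endocrine range differed from the others in its doublet scores. High scores marked 42.4% and 53.8% of its cells, against 3.88% and 3.77% in the low secretory and 2.91% and 4.29% in the goblet range. The part of droplets with more than 1 cell in this range was not tested. In WT the leading hormone gene was Tac1, the precursor of substance P in enterochromaffin cells, in 30 of 59 cells, followed by Sct in 9, Cck in 7, Gcg in 6, Gip in 4 and Ghrl in 3. Of the 30 Tac1-led cells 7 had high doublet scores. In the library labelled NFKO Tac1 led in 7 of 26 cells, Gip in 5 and Nts in 4. Endocrine genes made up at least 3% of UMIs, the level of endocrine-rich barcodes, in 15 and 13 cells. Median Olfm4 in this range was 2894 CPM in WT and 1397 CPM in the other library, against 1250 and 1086 CPM in the goblet range.

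**Figure D3:**
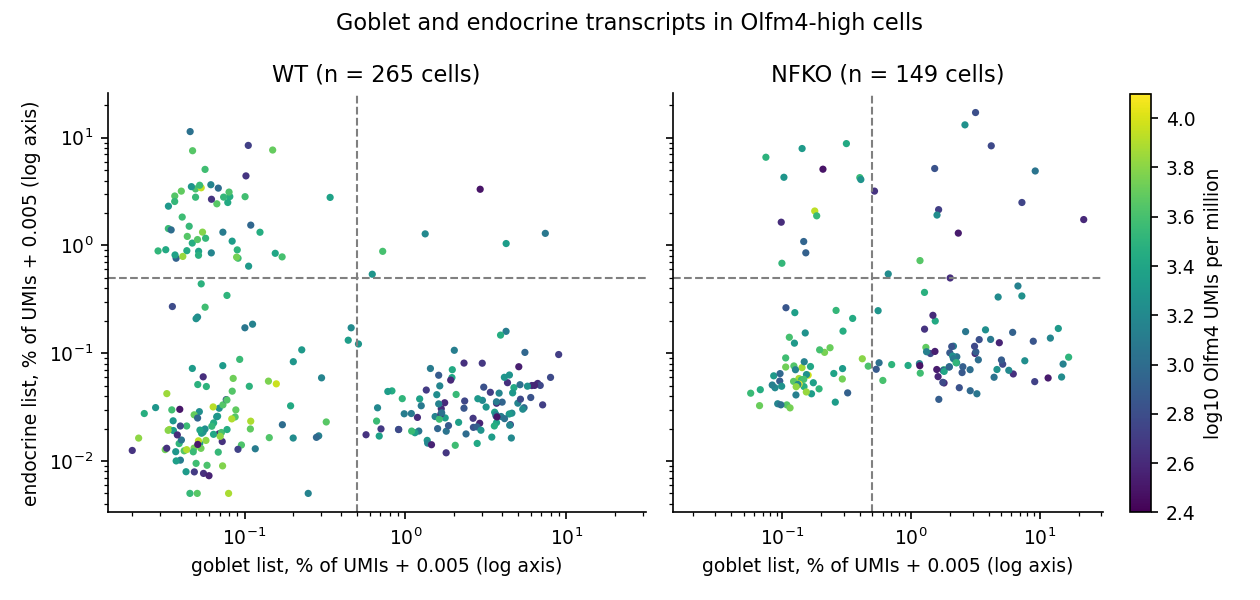
Share of UMIs from 15 goblet genes (x) and 20 endocrine genes (y) in each Olfm4-high cell, plus 0.005 on log axes, coloured by log10 Olfm4 CPM; dashed lines are the 0.5% limits of the ranges. Each range held cells of both libraries, and the cells of the library labelled NFKO lay higher on both axes in the low secretory range, with medians of 0.129% against 0.0529% for goblet genes and 0.0532% against 0.0148% for endocrine genes.

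Most Olfm4-high cells carried cell cycle transcripts. With the S phase and G2/M lists together at or above 0.3% of UMIs after thinning, 182 of 262 WT cells (69.5%, 63.5 to 74.98) and 106 of 144 cells of the library labelled NFKO (73.6%, 65.6 to 80.6) were above the limit. Without thinning the shares were 67.9% and 67.8%. Among the remaining kept barcodes 8.57% and 9.61% were above it, among Paneth-rich ones 2.87% and 1.90%, and among endocrine-rich ones 1.13% and 1.56%. Such a share is a cut through a continuum, with 76 and 43 cells within 1.5 times of the limit. All 13 S phase genes and 17 of 18 G2/M genes compared were at least 2-fold above the remaining barcodes, against 15.5% of all genes compared. The level for this was asked of the Olfm4-high cells only. In the remaining barcodes 0 S phase genes and 6 G2/M genes reached it. Median log2 differences were 2.79 and 2.38 for S phase and 1.99 and 1.78 for G2/M.

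The balance of the 2 phases differed from that of dividing Olfm4-low barcodes. Those barcodes had to pass a limit on both lists together, which was not asked of the Olfm4-high cells. What part that choice had in the medians, shares and gene ratios below was not tested. The S phase list took a median of 0.149% and 0.130% of UMIs in the Olfm4-high cells and 0.0745% and 0.0667% in the dividing barcodes. The G2/M list took 0.271% and 0.308% against 0.552% and 0.539%. Counting cells above 0.15% on each list, 14.0% and 10.7% of Olfm4-high cells were above it for S phase alone, 27.2% and 36.9% for G2/M alone, 35.5% and 31.5% for both and 23.4% and 20.8% for neither. The dividing barcodes, which were chosen by these lists, were above it for S phase alone in 2.38% and 3.05% and for G2/M alone in 70.5% and 71.8%. Gene by gene, Mcm3 was 2.01-fold and 2.05-fold and Pcna, the replication clamp, 1.44-fold and 1.43-fold higher in the Olfm4-high cells, whereas the mitotic Mki67 was at 0.761-fold and 0.692-fold and Top2a at 0.828-fold and 0.844-fold. Cyclin D1 (Ccnd1) was 3.74-fold and 4.42-fold and its partner Cdk4 3.12-fold and 2.65-fold above all remaining barcodes, and the inhibitor Cdkn1a was at 0.318-fold and 0.313-fold.

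**Figure D4:**
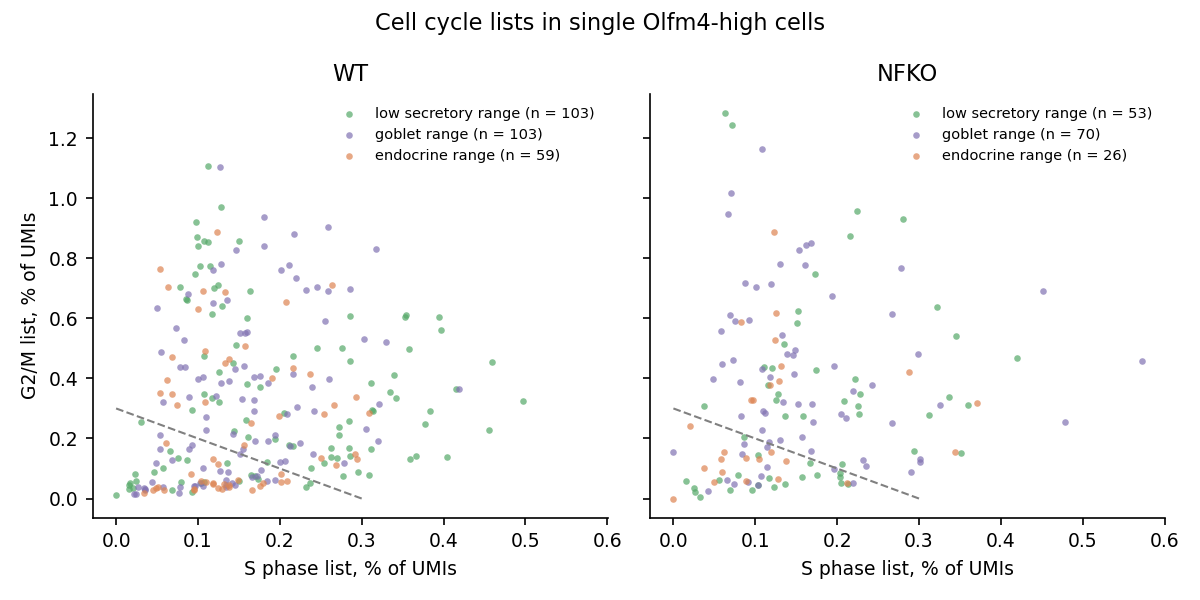
Share of UMIs from the S phase list (x) and the G2/M list (y) in each Olfm4-high cell, without thinning, coloured by secretory range; the dashed line joins points at which both lists together make up 0.3%. Cells with a high S phase share and a low G2/M share, and the reverse, were present in both libraries, and cells of each range lay on both sides of the line.

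Of the Notch genes, only Hes1 was abundant enough to be compared and at least 2-fold above the remaining barcodes in both libraries. No ligand and 0 of 14 receptors and modulators reached the level of that comparison, and of the 2 effectors that did, Hes6 was at 1.25-fold and 1.32-fold. The summed receptors and modulators were 1.37-fold and 1.14-fold of the level outside, and the 5 ligands 0.700-fold and 0.783-fold. The genes named next lie under that level, apart from Hes1. Notch1, the main receptor of intestinal stem cells, was at 28.6 and 30.1 CPM, 5.76-fold and 7.45-fold above the remaining barcodes, and Notch2 at 6.36 and 6.41 CPM, 7.12-fold and 12.1-fold above. Nrarp, a feedback target, was 5.59-fold and 7.27-fold and Hes1 4.78-fold and 4.95-fold above. Of the ligands, Dll1 was at 0.683-fold and 1.01-fold, Dll4 at 0.601-fold and 0.496-fold and Jag1 at 2.13-fold and 1.56-fold. Of 2 receptor or modulator genes and 2 effector genes abundant enough to be compared between libraries, Hes6, which counters Hes1, was past 1.5-fold, with 98.3 and 148 CPM and a ratio of 1.505 (1.38 to 1.64). Hes1 was at 144 and 113 CPM with a ratio of 0.788 (0.723 to 0.858). Neurog3, whose promoter drives the Cre, was at 17.0 and 34.9 CPM, and after thinning 4.96% and 7.64% of cells held a UMI of it, against 7.19% and 9.48% of the remaining barcodes.

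Olfm4-high cells made up a smaller share of the library labelled NFKO. They were 8.47% (7.52 to 9.5) of kept WT barcodes and 2.65% (2.24 to 3.10) of kept barcodes labelled NFKO, and the ratio was 0.312 (0.254 to 0.383). Among male-typed barcodes the shares were 9.72% (247 of 2540) and 5.19% (19 of 366), a ratio of 0.534 (0.316 to 0.852). Female-typed barcodes of the library labelled NFKO held 114 members among 4594, or 2.48%. The direction was the same in male-typed barcodes and the difference smaller. What part the sort, the sex of the mice or the genotype had in the share was not tested. At an Olfm4 limit of 1000 CPM the ratio was 0.286, and without a mitochondrial limit, which 35.6% of WT and 17.3% of the other barcodes exceeded, it was 0.315. The members' median mitochondrial share was 7.85% in WT and 5.11% in the other library.

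None of the markers and stem genes that were abundant enough was past the fold used to compare the libraries. A gene was called when its ratio was past 1.5-fold either way with its interval clear of 1, among genes of at least 50 CPM in 1 library and 100 UMIs in all. Of 2977 such genes 86 (2.89%) were called higher and 94 (3.16%) lower in the library labelled NFKO. With median-of-ratios size factors in place of total UMIs the split was 68 higher and 114 lower. In the low secretory range alone 130 of 2962 (4.39%) were called higher and 144 (4.86%) lower. Of the 4 markers abundant enough 0 were called, the lowest being Clca3b at 0.677 (0.650 to 0.705) and Dmbt1 at 0.748 (0.727 to 0.770). Of the stem list 0 of 14 genes were called, with a median log2 ratio of −0.16, beside 0.05 over all genes. Lgr5 had 43.0 and 46.5 CPM and a ratio of 1.08 (0.939 to 1.25), Smoc2 1.06 (0.966 to 1.15) and Kcnq1 0.949 (0.845 to 1.06). Of those 14, Sox9 at 0.687 and Prom1 at 0.690 were nearest to a lower call. Below the level of the comparison, 3 stem genes had ratios past 1.5-fold with intervals clear of 1. These were Igfbp4, which binds IGFs, with 47.1 and 23.6 CPM and a ratio of 0.50004 (0.417 to 0.597), Znrf3, a Wnt receptor ligase, with 15.2 and 9.39 CPM and 0.620 (0.458 to 0.829), and Nkd1, a Wnt antagonist, with 9 and 18 UMIs and 3.66 (1.56 to 9.24). In the low secretory range 2 of 19 stem genes were called higher, Ascl2 with 39.0 and 61.1 CPM and Nrn1 with a ratio of 2.34. Of the S phase list 0 of 15 were called, and of the G2/M list Cenpa (1.53) and Ube2c (1.56) of 20, both higher.

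Heat shock and immediate early transcripts were lower in the library labelled NFKO. Of 17 genes compared 8 were called lower and 0 higher, beside 3.16% and 2.89% of all genes, with a median log2 ratio of −0.52. The inducible heat shock gene Hspa1a ranged in WT cells from 0 over a median of 185 to 1810 CPM and was found in 80.8% of cells, and in the library labelled NFKO it ranged from 0 over a median of 0 to 586 CPM and was found in 15.4%. Summed, this was 262 against 10.7 CPM, a ratio of 0.0410 (0.0320 to 0.0518). Its neighbour Hspa1b, nearly identical in sequence so that reads may be shared, had a ratio of 0.0485, the cochaperone Dnajb1 0.306 and Hsph1 0.463. The AP-1 subunit Jun had 910 and 479 CPM, whereas Fos at 516 and 446 CPM was not called. The difference was not particular to these cells or to 1 sex. Hspa1a had a ratio of 0.0784 in the remaining kept barcodes, and male-typed members of the library labelled NFKO held 23.7 CPM beside 9.98 CPM in female-typed ones. Hbegf, an EGF family ligand induced by stress, had 80.7 and 27.0 CPM with a ratio of 0.334 (0.284 to 0.392), and the receptor Erbb3 0.643. The mitochondrial transcripts mt-Atp8 and mt-Nd2 had ratios of 0.320 and 0.445 beside the lower mitochondrial share of that library, and the mitochondrial tRNA ligase Lars2 0.428.

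The remaining lowest ratios were those of the histone gene Hist1h2ae at 0.451, Tcim at 0.457 and the endocrine genes Chgb at 0.343 and Tac1 at 0.458. The endocrine genes depended on the endocrine range. Without those cells Chgb had a ratio of 1.47 and Tac1 of 1.13. Among genes of FoxO targets, Txnip, an inhibitor of thioredoxin, had 162 and 102 CPM and a ratio of 0.629 (0.576 to 0.687) and the Krüppel-like factor Klf2 0.517, which turned to 1.41 in male-typed cells alone. The cell cycle inhibitor Cdkn1a was called higher at 1.65, but in the low secretory range its ratio was 0.728. In all, 2 of 5 FoxO targets compared were called lower and 1 higher, beside 3.16% and 2.89% of all genes. With 5 genes, of which Klf2 and Cdkn1a turned direction as above, this count is a description only. Irs2, an insulin receptor substrate under the level of the comparison, was at 20.9 and 7.75 CPM.

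The highest ratio belonged to Gm10260, a predicted gene with 4 UMIs in the WT cells and 1406 in those of the library labelled NFKO, or 0.326 and 210 CPM. Near-identical copies could share its reads. Its ratio was 643 (251 to 2363) in the Olfm4-high cells and 241 in the remaining barcodes. The other genes named by size were S100g, which binds calcium (2.41), the nonclassical MHC gene H2-T3 (2.24), Reg1 (2.21), the sterol enzyme Msmo1 (2.08), Sh3bgrl3 (2.05), Tm4sf4 (1.90), S100a16 (1.85), the cytidine deaminase Apobec3 (1.85), Ifi27l2b (1.84), Borcs8 (1.79) and Anxa13 (1.78). All 11 were also higher in the low secretory range, with ratios of 1.24 to 2.62. They were higher in the remaining barcodes of that library too, with ratios from 1.36 (S100a16) to 2.71 (Reg1) for 10 of them and 6.96 for S100g.

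Zg16 and 6 hormone genes were higher in the library labelled NFKO in each of the 3 ranges, whereas 6 other endocrine genes were lower over all cells. Of 15 goblet genes 6 were called higher and 0 lower. Zg16, a lectin of the mucus layer, was at 207 and 4056 CPM with a ratio of 19.6, its single-cell median was 38.6 CPM in WT and 338 CPM in the other library, and 100% of cells of that library held a UMI of it, against 74.7% in WT. In the low secretory range, where the range limit itself caps goblet genes, Zg16 still had a ratio of 7.76 (6.43 to 9.42). Nts, the neurotensin gene, had a single-cell median of 0 in WT and 84.3 CPM in the library labelled NFKO and was found in 94.0% of cells. In the remaining barcodes of that library 99.8% held Zg16 and 86.9% Nts, so their presence in nearly every Olfm4-high cell was shared with the whole library. Of 14 endocrine genes 6 were called higher (Gip, Sct, Nts, Sst, Ghrl and Pyy) and 6 lower (Chga, Chgb, Neurod1, Gcg, Tph1 and Tac1). Over all genes compared, 2.89% were called higher and 3.16% lower. Few cells weigh on some of these sums. Nts summed to 1124 CPM in the library labelled NFKO, with a highest cell of 63615 CPM. In the endocrine range of that library Nts led in 4 cells, 3 of them with high doublet scores, and Sst in 1. All 6 lower ratios turned above 1 when the endocrine range was left out. The part of free RNA and of the endocrine range in these differences was not tested.

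Tuft cell transcripts were a matter of few cells. The tuft list summed to 34.8 CPM in WT and 167 CPM in the library labelled NFKO, and 6 of the 149 cells of that library held 93.1% of it. All 6 lay in the low secretory range and passed the level of tuft-rich barcodes (0.3% of UMIs), as did 1 WT cell. Ins2, the insulin gene that the study sought, was found in 0 of 265 WT cells, which allows a share of cells with a UMI of up to 1.13% (3 cells), and in 4 of 149 cells of the library labelled NFKO (2.68%, 0.736 to 6.73), with 1 UMI each. In the remaining barcodes of that library 25 of 5483 (0.456%) held it, at a median of 16949 UMIs against 38660 in the Olfm4-high cells. Ins1 was not found in the cells of either library.

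MHC class II transcripts were high in the Olfm4-high cells and varied widely among cells of the library labelled NFKO. The proteins of this group present peptides to CD4 T cells, and Cd74 encodes their invariant chain. Relative to the remaining barcodes Cd74 was 5.66-fold and 4.15-fold higher, H2-Eb1 7.99-fold and 4.72-fold and H2-Aa 7.35-fold and 3.57-fold. Of the antigen presentation list, 4 of 8 genes compared were 2-fold higher in both libraries, against 15.5% of all genes compared. Here too the level was asked of the Olfm4-high cells only, and 6 genes of the list reached it in the remaining barcodes. Cd74 was at 891 CPM in WT cells and 526 CPM in the others, and its ratio was 0.591 (0.569 to 0.614). Of 8 genes compared, Cd74, H2-Ab1 (0.542) and H2-Eb1 (0.608) were called lower and 0 higher, beside 3.16% and 2.89% of all genes. WT cells held Cd74 almost without exception, with 99.2% having a UMI and quartiles at 574 and 1224 CPM. In the library labelled NFKO 71.8% had one, and the quartiles lay at 0 and 945 CPM. After thinning, the shares were 95.04% and 58.3%. Across cells Cd74 moved with H2-Aa, with Spearman's rho of 0.677 in 265 WT cells and 0.888 in 149 others, and less with the class I partner B2m at 0.272 and 0.345, over points that share library and depth.

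In female-typed cells this spread followed Gm10260, which was chosen for the comparison after its values were seen. Over all 149 cells of the library labelled NFKO, Spearman's rho of Gm10260 with Cd74 was −0.344, over points that share library and depth. Among cells of at least 20000 UMIs in the library labelled NFKO, 51 female-typed cells with a Gm10260 UMI held Cd74 at 163 CPM and 42 without one at 857 CPM, beside 861 CPM in 222 WT cells without one. As sums, the female-typed cells without Gm10260 thus lay at the WT level and those with it far below, although 33 of the 51 still held Cd74. H2-Eb1 was at 33.4 and 190 CPM, H2-Ab1 at 49.97 and 238 CPM and H2-Aa at 15.8 and 118 CPM in the same 2 sets. Of class I genes, B2m was at 354 and 366 CPM and H2-K1 at 252 and 441 CPM. Olfm4 at 1839 and 1818 CPM, Lgr5 at 54.6 and 45.5 CPM and Cps1 at 622 and 519 CPM were close between them. The 17 male-typed cells with a UMI held 457 CPM of Cd74. In the remaining female-typed barcodes of that depth, Cd74 was at 37.3 CPM with and 238 CPM without Gm10260, so the split was not particular to Olfm4-high cells. Male-typed ones ran the other way, with 193 CPM in 167 barcodes with and 90.3 CPM in 12 barcodes without Gm10260, of which 1 held Cd74. Among female-typed barcodes of at least 20000 UMIs, Olfm4-high cells were 51 of 853 (5.98%, 4.48 to 7.79) with and 42 of 1214 (3.46%, 2.51 to 4.65) without a Gm10260 UMI. From which of the pooled mice a cell came is not given, and a part of the mice in this split was not tested.

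**Figure D5:**
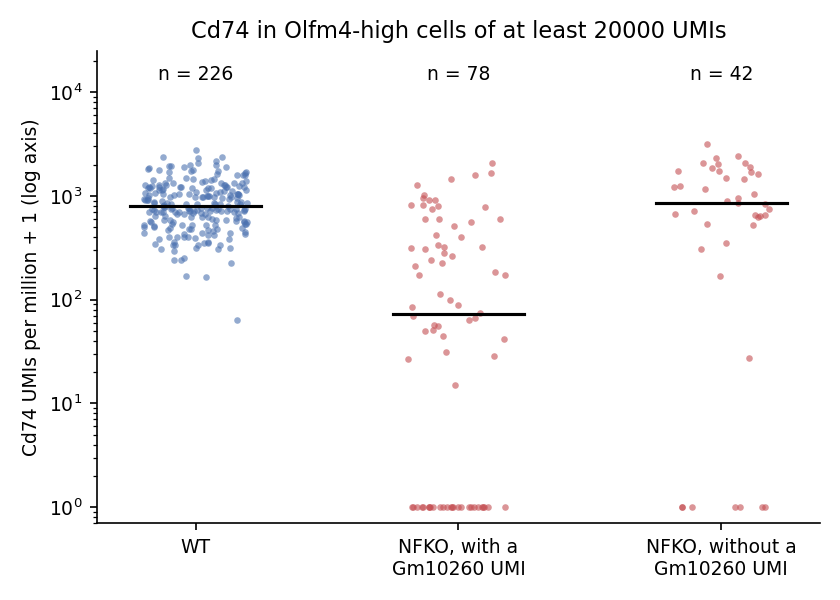
Cd74 CPM, plus 1 on a log axis, in Olfm4-high cells of at least 20000 UMIs; the cells of the library labelled NFKO, of either sex typing, are divided by whether they held a Gm10260 UMI, and black bars are medians. Every WT cell held Cd74, as did 35 of 42 cells of the other library without Gm10260 and 52 of 78 with it.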

How the data were processed

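Single-cell RNA-Seq of sorted small intestinal epithelial cells was deposited as 1 matrix of raw UMI counts per library, which the authors made with Cell Ranger 5.0.1 on mm10 according to the submitters' processing notes. The counts were analysed as deposited, with Python 3.11.15, numpy 2.4.6, scipy 1.17.1, pandas 2.3.3 and scanpy 1.11.5. Deposited barcodes summed to 90002878 UMIs for WT and to 124300388 for the library labelled NFKO, and Olfm4-high cells to 12268853 and 6706993. The Olfm4-high cells, the gene lists and the ranges were chosen with earlier results of these data known. The division by Gm10260 and the settings without the endocrine range, in the low secretory range and without shared barcodes were chosen after seeing the data.

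UMIs of a gene were summed over the cells of a library and divided by their total. Because each group is 1 library, no test was made. Levels carry exact Poisson, shares Clopper-Pearson and ratios conditional binomial 95% intervals, and 3 UMIs were taken as the limit that a count of 0 allows. The routines were tested on simulated data. Genes named between libraries were the 12 highest and 12 lowest ratios, and against the remaining barcodes the 20 highest in the lower of both libraries, with at most 25% of UMIs in the 3 richest cells, besides the listed genes. Genes were compared as lower than other barcodes where those barcodes held at least 50 CPM. Barcodes were called Paneth-rich at 10% of Defa and Lyz1 UMIs and endocrine-rich, goblet-rich, tuft-rich or enterocyte-rich at 3%, 5%, 0.3% or 1% of UMIs of the lists. For shares of cells with a UMI each cell was thinned to 5000 UMIs. Doublets were kept, and Scrublet scores, taken from the top at 0.8% per 1000 barcodes, marked 126 and 340 barcodes (57 and 166 by its automatic threshold). Promoters were those of RefSeq on GRCm38.p6, in which Lgr5, Dmbt1, Cps1, Smoc2, Hes1 and Kcnq1 had no entry.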

Additional observations from a re-analysis of the deposited data

How the results depend on the processing

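The share of Olfm4-high cells was lower in the library labelled NFKO under each alternative, with ratios of 0.286 to 0.348 in 12 of them and 0.534 among male-typed barcodes. With a minimum of 20 UMIs and no CPM minimum, 1261 genes in place of 180 were past 1.5-fold (556 higher, 705 lower), 97 list members in place of 46 (56 higher, 41 lower), and 1434 genes in place of 393 were 2-fold above the remaining barcodes. That last count was 248 when Paneth-rich barcodes were left out of the comparison. Among male-typed cells 312 genes were past 1.5-fold, 173 of them higher, with 36 list members lower. In the low secretory range the count was 274 (130 higher, 144 lower) and the Foxo1 ratio 1.92. With median-of-ratios size factors 37.4% of the genes called were higher, against 47.8% by total UMIs. With a limit 1.5 times as high, 48.5% of WT cells and 50.7% of the others were above the cell cycle limit. The direction turned among male-typed cells for Cenpa (0.998), Clca1 (0.942), Defa21 (0.861), Defa22 (0.925), Ang4 (0.769) and Klf2 (1.41), in the low secretory range for Cdkn1a (0.728), Cdkn1c (0.406), Chga (1.91), Gcg (1.77), Tac1 (1.87) and Clps (0.275), and without the endocrine range for Neurod1 (1.05), Chga (2.49), Chgb (1.47), Gcg (1.69), Tph1 (1.73) and Tac1 (1.13). The cause was not tested, apart from the lower minimum, which admits more genes. Of the remaining values for single genes and lists, 498 moved little, and 230 moved without turning direction. No paired analysis was possible because each group is 1 library, and for the same reason none could be left out in turn. Genes under 50 CPM, Foxo1 among them, are limited by counting error, and differences between mice cannot be told apart from those between genotypes, sexes or libraries.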

Other observations

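Several other gene groups were read in the Olfm4-high cells. Nox1, an oxidase of the crypt, was at 8.97 CPM in WT and 4.18 CPM in the library labelled NFKO, 14.3-fold and 12.8-fold above the remaining barcodes, and the type 1 IGF receptor Igf1r at 44.1 and 31.9 CPM, 2.90-fold and 2.93-fold above. Against the remaining barcodes, 0 of 9 mucosal defence genes compared were 2-fold lower and 1 of 8 was 2-fold higher in both libraries. The antimicrobial lectin Reg3g was at 0.528-fold and 0.633-fold and Reg3b at 0.638-fold and 0.726-fold. Between libraries, 1 of 9 mucosal defence genes compared was called higher (Reg1) and 1 lower, beside 2.89% and 3.16% of all genes. The lower one was Pigr, which carries immunoglobulin A across the epithelium, at 1866 and 1112 CPM. Of 5 regional identity genes compared 0 were called, with a median log2 ratio of −0.07. Cdx1 was at 145 and 163 CPM and Hnf4a at 159 and 145 CPM. Of 3 insulin and IGF signalling genes compared 0 were called, with a median of −0.23. Areg, an EGF family ligand too scarce for the comparison, was at 38.0 and 9.69 CPM.

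Paneth cell transcripts, which the rule limits only through Defa genes and Lyz1, were low in most members, with the Paneth list at a median of 0.137% (WT) and 0.192% (library labelled NFKO) of UMIs. The 38 and 18 barcodes that failed only the limit on Defa and Lyz1 held Lgr5 at 42.6 and 28.7 CPM and Olfm4 at 1062 and 735 CPM, but Cps1 at 212 and 177 CPM and Mki67 at 99.8 and 41.3 CPM. Of the genes of fetal-like or regenerating epithelium Krt7, a keratin, was abundant, at 184 and 259 CPM, whereas Ly6a was at 5.22 and 10.4 CPM, Anxa1 at 0.245 and 0.149 CPM and Clu at 0.815 and 0.447 CPM. This list was not a trait of the Olfm4-high cells, as it summed to 0.614-fold and 0.532-fold of the level in the remaining barcodes. The 1 gene of it abundant enough to be compared was lower than there, with log2 differences of −0.653 and −0.833. The 10 pancreas genes summed to 15.5 and 21.8 CPM, of which the elastase gene Cela1, at 12.9 and 15.95 CPM, made up most.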
